A study of Mus musculus with 6 samples.

Results

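Cytosolic ribosomal protein genes encode the protein parts of the ribosomes that translate messenger RNA outside mitochondria. They were taken from the 31053 features of the count tables by symbol. A member is Rpsa, Rplp0, Rplp1 or Rplp2, or a symbol that starts with Rpl or Rps followed by a digit, and 19 symbols were left out because they start with Rps6k, which are kinases, or contain -ps, the mark of a pseudogene. The rule gave 86 members. Of these, 43 encode proteins of the large subunit, 31 encode proteins of the small subunit (Rpsa included) and 3 encode the acidic stalk of the large subunit (Rplp0, Rplp1 and Rplp2). A further 8 are paralogs (Rpl3l, Rpl7l1, Rpl10l, Rpl22l1, Rpl36al, Rpl39l, Rps27l and Rps27rt), and Rps19bp1 encodes a protein that binds the product of Rps19 and is not itself a ribosomal protein. At least 1 UMI (unique molecular identifier, the tag that marks 1 captured RNA molecule) was counted for 85 members in the cells kept, Rpl10l being at 0.

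Single-cell RNA sequencing was done on cells of the pancreas from the R26[CA]30EYFP mouse strain, background C57Bl/6J. In this strain the Rosa26 locus carries an EYFP reporter that a CA repeat holds out of frame, so that a cell and its descendants can become yellow after a slip during DNA replication. All 6 libraries carry this reporter, and the labels name no Cre driver. The groups were EYFP negative cells in homeostasis (n = 2, runs 1 and 2), EYFP positive cells in homeostasis (n = 2, runs 1 and 2), and 1 EYFP negative and 1 EYFP positive library (run 3) taken 9 days after pancreatitis was induced with cerulein at 50 ug/kg, given as 7 injections per day on 2 days. Cerulein is a cholecystokinin analog that overstimulates and injures acinar cells. The homeostasis libraries were untreated. The sources used here give neither the animals' age nor whether runs came from separate animals, so a p-value measures only the spread between these libraries, and run 3 and pancreatitis cannot be told apart.

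Ribosomal proteins are needed in equal numbers, and their messenger RNAs are among the most abundant in most cells. Most of these RNAs begin with a 5′ terminal oligopyrimidine tract (TOP), a C followed by further C and U, through which mTOR signalling and the RNA-binding protein LARP1 set their translation and stability together. Resting lymphocytes are known to store such RNAs. Pancreatic acinar cells translate more protein than most cells, nearly all of it digestive enzymes.

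RefSeq start sites show both what members share around the start and where paralogs part. The table of promoters (build GRCm38.p6) held 78 entries for 66 members. An unbroken run of at least 8 C or T within 15 bases of the start, on the transcribed strand, was found in 28 of the 78 entries (35.9%) and in 3943 of all 32851 entries (12.003%). A RefSeq start can differ from the start used in these cells. The windows below run 5′ to 3′ from 10 bases before the start to 20 bases from it, and capitals mark runs of 5 or more C or T. They are shown for some of the members with large differences in level or makeup between cell classes, and for paralog sets. Rpl22 and Rps27l have 2 starts each, and the start with the longest run of C or T near it is shown.
Rpsa: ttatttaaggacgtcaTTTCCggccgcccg
Rpl12: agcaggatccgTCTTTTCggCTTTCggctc
Rps15a: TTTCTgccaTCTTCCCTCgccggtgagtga
Rpl39: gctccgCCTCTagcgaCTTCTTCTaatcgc
Rpl41: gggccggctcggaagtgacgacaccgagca
Rpl22: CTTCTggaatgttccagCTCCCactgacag
Rpl22l1: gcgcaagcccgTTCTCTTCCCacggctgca
Rps27: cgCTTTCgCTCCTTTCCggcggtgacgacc
Rps27rt: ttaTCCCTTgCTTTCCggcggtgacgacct
Rps27l: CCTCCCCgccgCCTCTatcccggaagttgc
The windows lie at chr9:120127756-120127785 (Rpsa, plus strand), chr2:32961702-32961731 (Rpl12, plus), chr7:118116128-118116157 (Rps15a, minus), chrX:37085203-37085232 (Rpl39, minus) and chr10:128549149-128549178 (Rpl41, minus). Those of the paralog sets lie at chr4:152324426-152324455 (Rpl22, plus), chr3:28805498-28805527 (Rpl22l1, plus), chr3:90213629-90213658 (Rps27, minus), chr9:114982720-114982749 (Rps27rt, minus) and chr9:66946076-66946105 (Rps27l, plus). From the start on, 39 of 49 bases of Rps27rt matched those of Rps27 at a shift of 1 base, against 8 of 50 before the start. Rps27 and Rps27rt are thus alike at the start of the transcript, at the best of the shifts tried, but not upstream of it. Reads could be split between them, so their separate counts are uncertain. The window of Rps27l differs from both.

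The 300 bases from 250 before to 50 after the start held several other short motifs, searched on both strands. CTTTCC, which a pyrimidine tract can itself hold, was in 40 of the 78 member entries (51.3%) and in 26.6% of all entries. CCGGAAG, the core bound by ETS factors such as GABPA, was in 27 (34.6%) against 8.86%. AAGATGG, the core of the YY1 motif, was in 12 (15.4%) against 6.34%, and TATAAA was in 7 (8.97%) against 13.6%. A match in a window is a description of letters and shows no binding.

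The 6 libraries held 8582 barcodes, of which 4888 were kept (187 to 1759 per library), with 1044718 to 23658431 UMIs per library and a median of 2560 to 7385.5 UMIs per kept cell. Libraries of different runs shared at most 2 kept cell barcodes, but libraries of the same run shared more: 18 barcodes were kept in both libraries of run 1, 68 in both of run 2 (of 187 cells in EYFP positive run 2) and 11 in both of run 3. These copies differed in depth by a median factor of 11.6 to 38.5, and 14, 46 and 10 of them fell in the same cluster. The deeper copy was in the EYFP positive library for 7 of 18 in run 1, 57 of 68 in run 2 and 11 of 11 in run 3. Ductal-like cells were the class most touched in number: 22 of their 26 cells in EYFP positive run 2 and 7 of their 11 cells in EYFP negative run 3 had a barcode also present in the other library of the run, kept there or not. Whether both copies of a barcode come from 1 cell was not tested, so the EYFP positive and negative libraries of a run may not be fully separate samples. Copies stayed in the values below, which are also given without them where that matters. EYFP positive run 2 was the smallest library, and 31 of the 41 cells of a low-UMI acinar-like cluster came from it. The cells fell into 19 clusters, found without the member genes, and clusters were named as "-like" classes from fixed marker lists. The clusters were thus not defined by ribosomal protein RNA.

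Members took 4393628 of the 28051853 UMIs in kept cells, or 15.7%. A median of 78 members was detected per cell, and the highest share in any cell was 52.2%. The left-out pseudogene symbols had 4009 UMIs, or 0.0912% of the members' UMIs. In the pool of kept cells the member share was 16.8%, 17.6% and 16.3% in EYFP negative runs 1, 2 and 3 and 11.9%, 19.2% and 13.7% in EYFP positive runs 1, 2 and 3. Those pools mix cell classes in different proportions: EYFP positive run 1, with the lowest share, held 524 endothelial-like cells among 832.

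Among the 8 named classes with enough cells, lymphocytes carried the highest member share and acinar-like and fibroblast-like cells the lowest. In B-like cells the median share of a cell's UMIs was 27.3%, 26.5%, 29.2%, 26.8%, 26.5% and 29.9% in EYFP negative runs 1 to 3 and then EYFP positive runs 1 to 3, the order used throughout (27.7% ± 1.47, SD, n = 6). B-like cells were above the mean of the other classes in all 6 libraries, by 14.7 percentage points on average (two-sided exact sign-flip permutation test, p = 0.03125, the smallest that 6 libraries allow, and 0.0833 adjusted over 8 classes). T or NK-like cells had shares of 24.7%, 32.2%, 26.9%, 21.1%, 38.7% and 24.7% (28.0% ± 6.37, n = 6), a spread over libraries several times that of B-like cells, and were above the other classes by 15.03 points in 6 of 6 (exact p = 0.03125). The 2 lymphocyte ranges overlapped each other and no other class reached 20%.

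**Figure D1:**
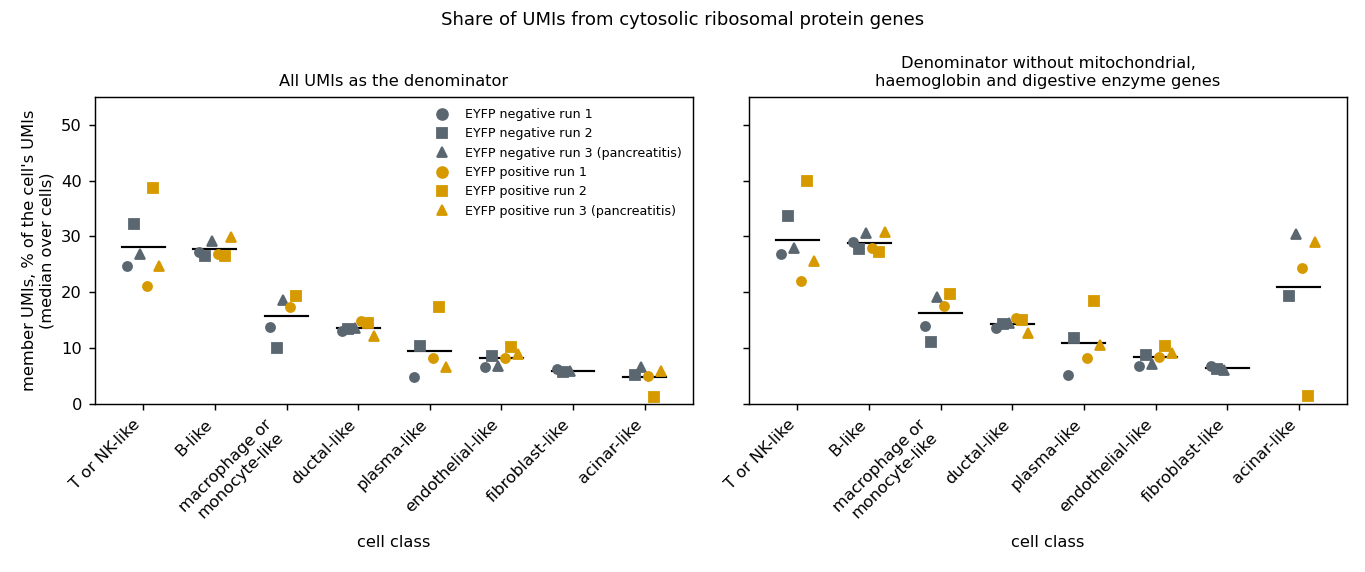
Share of each cell's UMIs that came from the 86 ribosomal protein genes (percent, vertical axis) in each cell class, over all UMIs (left) and without mitochondrial, haemoglobin and enzyme genes in the total (right); every point is the median over the cells of 1 library and the line is the mean over libraries. On the left, B-like and T or NK-like cells lie above 20% and acinar-like, fibroblast-like and endothelial-like cells near or under 10%; on the right, acinar-like cells rise to 19.3% to 30.4% except in EYFP positive run 2 (1.55%).

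Epithelial, stromal and vascular cells sat lower. Ductal-like cells, which line the ducts, had 13.1%, 13.5%, 13.6%, 14.9%, 14.5% and 12.3% (13.6% ± 0.930, n = 6), 1.76 points under the other classes (exact p = 0.0625; above them in 1 of 6). Endothelial-like cells of the blood vessels had 6.69%, 8.55%, 6.86%, 8.31%, 10.2% and 9.04% (8.28% ± 1.34, n = 6), below the other classes by 8.01 points in 6 of 6 libraries (exact p = 0.03125). Macrophage or monocyte-like cells had 10.1% to 19.4% (15.9% ± 3.86, n = 5), plasma-like cells, which secrete antibody, 4.87% to 17.4% (9.51% ± 4.85, n = 5) and fibroblast-like cells 5.81% to 6.31% (6.01% ± 0.264, n = 3). The exact sign-flip permutation tests of these 3 classes gave p = 0.625, 0.0625 and 0.25, the last of which is the smallest that 3 libraries allow. No class passed an adjusted 0.05, but with so few libraries none could have passed it over the classes tested, so this outcome decides nothing.

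Acinar-like cells had the lowest shares, 5.21%, 6.60%, 5.08%, 1.38% and 6.01% in the 5 libraries with at least 10 cells (4.85% ± 2.04), which is 12.3 points below the other classes in 5 of 5 (exact p = 0.0625, the smallest that 5 allow). A share is relative, and digestive enzyme genes took a median of 53.4%, 77.5%, 76.5%, 17.1% and 78.8% of the acinar-like UMIs in those libraries. With mitochondrial, haemoglobin and enzyme genes taken out of the total, the acinar-like share became 19.3%, 30.4%, 24.4%, 1.55% and 29.0%, and the class then lay 2.89 points above the mean of the other classes. The library that stayed at 1.55%, EYFP positive run 2, is the one whose acinar-like cells came mostly from the low-UMI cluster, with a median of 1717 UMIs and 7.24% of UMIs from the nuclear RNAs Malat1 and Neat1. In B-like cells the same change of denominator moved the share only to 27.1% to 30.8%.

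Within classes the share also differed between clusters, which is a description, since the clusters were looked at after their shares. Among T or NK-like cells, a cluster led by Cd8b1 and Lef1 (100 cells) had a median share of 38.1% (33.6% to 42.4% over libraries with at least 10 cells). One led by Lef1 and Tcf7 (180 cells), transcription factors of naive T cells, had 37.5% (32.5% to 38.4%). A cluster with Ccl5 and Trdc (113 cells) had 29.0% (23.5% to 38.2%), so its range overlapped those of both clusters led by Lef1. One with Ctla4 and Icos (166 cells), as in regulatory and activated T cells, had 23.1% (7.33% to 25.1% over libraries). One with Gzma and Ncr1 (100 cells, 78 of them in EYFP negative run 3), as in natural killer cells, had 21.3%. The makeup of the T or NK-like class by these clusters differed between libraries. Of the B-like cells, 789 lay in a cluster with a median of 29.5% and 173, of which 131 came from EYFP negative run 2, in a low-UMI cluster with 6.75%, a median of 965 UMIs, 12.5% mitochondrial UMIs and 11.9% from Malat1 and Neat1. The part of RNA quality in that value was not tested. The 3 named endothelial-like clusters were close together: 8.84% where Aplnr and Aqp1 led, 8.61% where Fbln5 and Gja4 did and 7.31% where Car4 and Esm1 did. A further cluster of 479 cells, with 10 of 11 endothelial markers detected, was left unnamed for its low UMI count (median 936) and entered no class. Its median share was 9.43%. The low-UMI B-like and acinar-like clusters stayed in their classes, so low-UMI cells were not treated alike in all classes. The main acinar-like cluster had 6.35% and the low-UMI one (41 cells) 1.12%, with only 10.6% enzyme UMIs and 13.2% from Malat1 and Neat1. Erythroid-like barcodes, with 95.4% haemoglobin UMIs, were lowest at 0.209%.

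**Figure D2:**
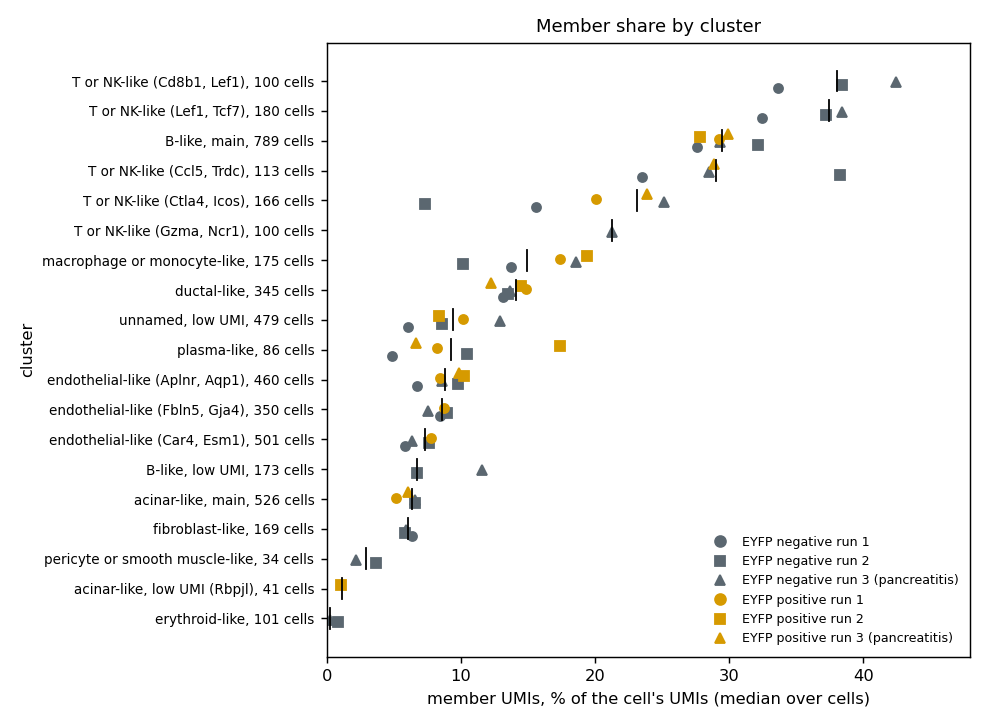
Median member share (percent of a cell's UMIs, horizontal axis) in each cluster, with 1 row per cluster; points are medians of libraries with at least 10 cells of the cluster, and the tick is the median over all its cells. The 2 clusters led by Lef1 lie near 38%, the main B-like cluster near 29.5%, and the low-UMI B-like and acinar-like clusters far below the main cluster of their class.

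Gene by gene, the members moved together between classes. UMI counts were summed over the cells of a class in each library, and classes were compared with edgeR's quasi-likelihood test with the library as a block; a gene was called at a Benjamini-Hochberg adjusted p under 0.05 over all genes tested. Of the 86 members, 83 passed the filter on low counts (Rpl3l, Rpl10l and Rpl39l did not). Between B-like and endothelial-like cells, 80 of the 83 were higher in B-like cells, where 27.8% of all genes tested were, and 1 was lower, where 36.0% of all genes were. The median log2 difference was 2.14 over the members and -0.08 over all genes tested.

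The ribosomal proteins of both subunits and the stalk were all among those called: 43 of 43 of the large subunit, 31 of 31 of the small subunit and 3 of 3 of the stalk. Rpsa, a small subunit protein also known as the laminin receptor precursor, had the largest difference. Its level per 1000000 UMIs of the class sum (CPM) was 5592, 5539, 5266, 5105, 5496 and 5108 in B-like cells and 698, 927, 735, 814, 1155 and 628 in endothelial-like cells. Every B-like sum exceeded every endothelial-like one several times over, and the fitted log2 difference was 3.08 ± 0.18 (SE; edgeR adjusted p = 2.3e-14). Rpl12, at the base of the stalk, had 3087, 2900, 3322, 3199, 1496 and 2920 CPM in B-like cells against 467, 608, 522, 579, 438 and 496 CPM in endothelial-like cells. EYFP positive run 2 had the lowest B-like level of Rpl12, and the difference was 2.78 ± 0.19 on the log2 scale. Rpl39, a small protein in the exit tunnel, had 5665 to 7019 CPM in B-like cells against 943 to 1592 CPM (log2 difference 2.77 ± 0.18). The others named by size were Rps26 (2.71 ± 0.18), Rps28 (2.69 ± 0.18), Rpl10a (2.69 ± 0.19), Rps15a (2.68 ± 0.18) and Rps13 (2.63 ± 0.18), all higher in 6 of 6 libraries. Stalk genes differed by 2.43 ± 0.18 (Rplp0), 1.99 ± 0.17 (Rplp1) and 2.11 ± 0.18 (Rplp2) on the log2 scale.

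Exceptions were few and mostly paralogs. Rps27l, a p53 target and paralog of Rps27, was lower in B-like cells, at 87.6, 94.7, 84.2, 68.9, 55.1 and 71.8 CPM against 133, 220, 225, 190, 233 and 190 CPM in endothelial-like cells (log2 difference -0.84 ± 0.16, edgeR adjusted p = 5.3e-05). The 2 ranges did not overlap. Its relatives were higher: Rps27 by 2.57 ± 0.17 and Rps27rt by 2.50 ± 0.17. Rpl7l1, a paralog of Rpl7 that works in ribosome assembly, did not pass (0.22 ± 0.18, edgeR adjusted p = 0.3), nor did Rps19bp1 (0.37 ± 0.25, adjusted p = 0.2 in the same test), while Rpl7 differed by 1.81 ± 0.17 and Rps19 by 2.28 ± 0.18. The paralogs Rpl22l1 (2.26 ± 0.18) and Rpl36al (1.74 ± 0.17) moved as did Rpl22 (2.13 ± 0.18) and Rpl36a (2.19 ± 0.17).

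T or NK-like cells gave the same picture against endothelial-like cells. There 80 of 83 members were higher, where 28.9% of all genes tested were, and 1 was lower, where 33.4% were (median log2 difference 2.16; -0.05 over all genes tested). This comparison shares its endothelial-like sums with the B-like one, so the 2 are set side by side only. Rpsa again led, with 5810, 6836, 5689, 5127, 8195 and 4883 CPM in T or NK-like cells (log2 difference 3.21 ± 0.14, edgeR adjusted p = 3.6e-15), followed by Rpl12 (3.11 ± 0.15), Rps15a (2.84 ± 0.14), Rplp0 (2.80 ± 0.15), Rpl39 (2.76 ± 0.13), Rps28 (2.74 ± 0.14), Rpl10a (2.64 ± 0.14) and Rps7 (2.64 ± 0.14). Rps27l was again the member called lower (-0.55 ± 0.15, edgeR adjusted p = 0.0035, lower in 6 of 6 libraries). Rpl7l1 (-0.03 ± 0.19) and Rps19bp1 (0.28 ± 0.26) did not pass.

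The 2 lymphocyte classes differed little from each other. Of 83 members, 2 were higher in B-like than in T or NK-like cells and 0 were lower, where 17.1% of all genes tested were called higher and 18.3% lower (median log2 difference 0.04). Rps27rt had 465.85, 546, 375, 429, 205 and 463 CPM in B-like cells and 319, 480, 304, 234, 245 and 316 CPM in T or NK-like cells (log2 difference 0.50 ± 0.14, edgeR adjusted p = 0.0048). Rps12 had 4639, 4488, 5017, 5465, 2622 and 5517 CPM against 3398, 4127, 4060, 4204, 2917 and 3475 CPM (0.41 ± 0.14, edgeR adjusted p = 0.023). Both were higher in 5 of 6 libraries, EYFP positive run 2 being the exception each time. Rps27, the relative of Rps27rt, missed the threshold (0.32 ± 0.13, edgeR adjusted p = 0.065). By edgeR, 7 members had an unadjusted p under 0.05, and the count of members called higher ran from 1 to 6 when a library was left out, was 7 without the low-UMI B-like cluster and was 1 by DESeq2.

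Ductal-like cells lay between. Of 83 members, 78 were higher in ductal-like than in endothelial-like cells, where 33.8% of all genes tested were, and 0 were lower, where 33.6% were (median log2 difference 0.66; -0.02 over all genes tested). The members that led here were partly others. Rpl22l1, the paralog of the RNA-binding protein Rpl22, had the largest difference (1.41 ± 0.15, edgeR adjusted p = 2.9e-08). Rpl10, which sits near the peptidyl transferase centre and is among the last proteins added to the large subunit, had 2415, 2461, 2758, 3252, 2599 and 2586 CPM in ductal-like cells and 754, 1002, 917, 1170, 1229 and 905 CPM in endothelial-like cells. The 2 ranges were far apart (log2 difference 1.38 ± 0.10, edgeR adjusted p = 6.7e-11). Rps27l, lower in lymphocytes, was here higher, with 444, 401, 667, 483, 409 and 410 CPM (1.18 ± 0.14, higher in 6 of 6). Rpl10a (1.17 ± 0.11), Rps9 (1.12 ± 0.11), Rplp0 (1.10 ± 0.11), Rpl21 (0.99 ± 0.10) and Rps28 (0.97 ± 0.11) completed the 8 named. The 5 members not called were Rps27rt (0.04 ± 0.14), Rpl7l1 (0.11 ± 0.16), Rps6 (0.19 ± 0.12), Rps14 and Rps15. In EYFP negative run 3 the ductal-like sum rested on 11 cells with a median of 1330 UMIs and 7.78% haemoglobin UMIs; without that library 76 members were called.

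**Figure D3:**
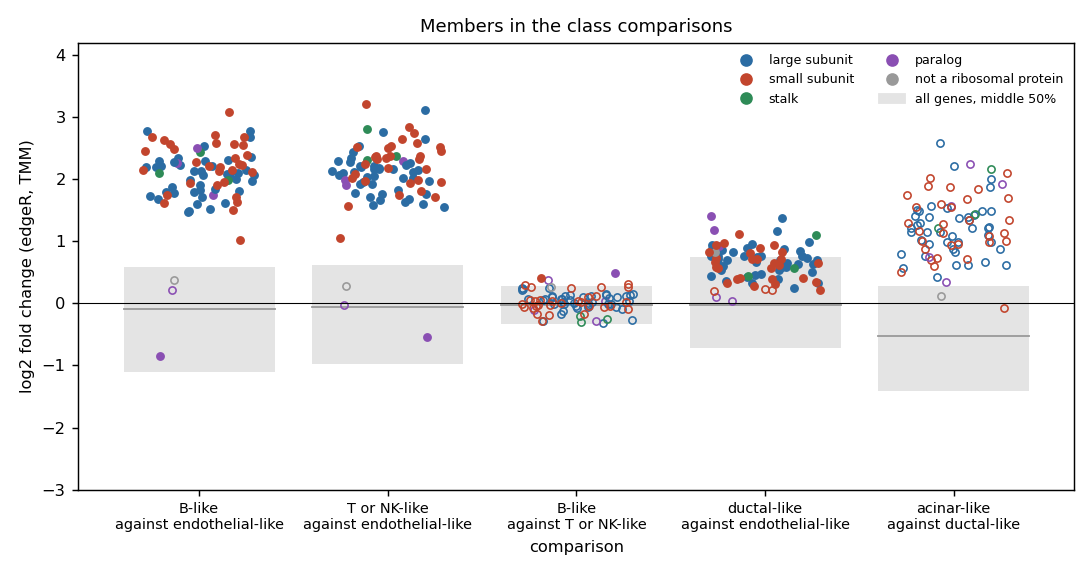
Fitted log2 differences of the 83 tested members between classes (vertical axis), with 1 column of points per comparison, coloured by subunit; filled points were called, and grey boxes with a line give the interquartile range and median of all genes tested. The lymphocyte comparisons centre near 2.1, ductal-like against endothelial-like cells near 0.7 and B-like against T or NK-like cells near 0; Rps27l lies under 0 in both lymphocyte comparisons.

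For acinar-like against ductal-like cells the direction depended on the scaling. In plain CPM nearly all members were lower in acinar-like cells: Rpsa had 1443, 1037, 791, 635 and 661 CPM in the 5 acinar-like sums against 1768, 1455, 1544, 1933 and 1532 CPM in the ductal-like sums of the same libraries. On edgeR's TMM scale, which sets most genes to no change, the median member difference was 1.21 and 82 of 83 were positive, against -0.52 over all genes tested. That median was 0.49 with stricter cell filters (500 genes and 10% mitochondrial UMIs), 0.72 without barcode copies, 0.73 without EYFP negative run 3 and 1.93 without the low-UMI clusters. No member was called, where 4.73% of all genes tested were called higher and 10.8% lower, and 10 members had an unadjusted p under 0.05 in edgeR. The lowest adjusted p was that of Rps27l (2.24 ± 0.88, edgeR adjusted p = 0.066). Without EYFP positive run 2, 37 members were called higher, but in that setting 27.2% of all genes tested were called in either direction. Without the low-UMI clusters it was 56 members with 28.5% of all genes called, by DESeq2 14 with 18.1%, and with the size factors of DESeq2 in edgeR 2 with 17.7%. On the member total (next) the median was -0.14, but that scale sets the members as a whole to no change, so this value cannot show a direction. Since plain CPM and the TMM scale gave opposite signs, no direction is given for this pair.

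The makeup of the set itself was compared by scaling each sum to its member total, so that a gene's level is its percent of all member UMIs. On this scale 15 members were higher and 28 lower in B-like than in endothelial-like cells by edgeR at an adjusted p under 0.05. Nearly every gene moves when this scale is used across the whole table (95.5% of all genes tested were called), since the member total itself differs between the classes, so the share of genes called is no yardstick for members here. The largest gain was that of Rpsa, which made up 2.00%, 1.83%, 1.85%, 1.66%, 1.91% and 1.67% of member UMIs in B-like cells and 1.004%, 0.984%, 1.02%, 0.922%, 1.10% and 0.783% in endothelial-like cells. All B-like values exceeded all endothelial-like values (log2 difference 0.91 ± 0.11, edgeR adjusted p = 5.3e-07). Rpl12 (0.60 ± 0.13), Rpl39 (0.60 ± 0.11), Rps26 (0.54 ± 0.12), Rps28 (0.52 ± 0.11), Rpl10a (0.51 ± 0.13), Rps15a (0.51 ± 0.11) and Rps13 (0.46 ± 0.11) followed. The largest loss was that of Rps27l, at 0.0313%, 0.0313%, 0.0295%, 0.0224%, 0.0192% and 0.0235% against 0.191%, 0.233%, 0.311%, 0.216%, 0.222% and 0.237% of member UMIs (log2 difference -3.09 ± 0.17, edgeR adjusted p = 1.1e-11).

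Rpl7l1 (-2.03 ± 0.19) and Rps19bp1 (-1.86 ± 0.25), which have few UMIs, Rpl24 (-0.70 ± 0.12), Rpl15 (-0.69 ± 0.12), Rps14 (-0.67 ± 0.12) and Rpl7a (-0.66 ± 0.13) also took less of the set in B-like than in endothelial-like cells, each in 6 of 6 libraries.

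T or NK-like cells had 16 members higher and 23 lower than endothelial-like cells within the set (94.9% of all genes tested were called on this scale). Rpsa (1.01 ± 0.11), Rpl12 (0.91 ± 0.12), Rps15a (0.64 ± 0.11) and Rplp0 (0.60 ± 0.12) led the gains, and Rps27l (-2.76 ± 0.19), Rpl7l1 (-2.25 ± 0.21) and Rps19bp1 (-1.90 ± 0.30) were among the losses. Between B-like and T or NK-like cells, where the member totals were close, 10 members were higher and 9 lower of 83. Over all genes tested 28.4% were called, a larger share than among the members, so these counts are no result about the set and the values below describe single members. Their differences were small but had the same sign in all 6 libraries for those named. Rps27rt (0.45 ± 0.14), Rps12 (0.37 ± 0.06), Rps27 (0.28 ± 0.04), Rps20 (0.25 ± 0.05), Rps9 (0.23 ± 0.06), Rps26 (0.22 ± 0.06) and Rps19 (0.22 ± 0.06) took more of the set in B-like cells. All 3 stalk genes took less, Rplp0 by a log2 difference of -0.33 ± 0.06, Rplp1 by -0.29 ± 0.05 and Rplp2 by -0.24 ± 0.06. Rpl5, which with Rpl11 carries the 5S ribosomal RNA and can restrain Mdm2, differed by -0.36 ± 0.08 while Rpl11 differed by 0.02 ± 0.06.

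Ductal-like cells had 16 members higher and 20 lower than endothelial-like cells within the set (76.8% of all genes tested were called on this scale). Rpl22l1 made up 0.386%, 0.438%, 0.590%, 0.368%, 0.556% and 0.540% of member UMIs in ductal-like cells and 0.246%, 0.254%, 0.196%, 0.289%, 0.284% and 0.364% in endothelial-like cells, higher in 6 of 6 libraries although the ranges nearly met (log2 difference 0.78 ± 0.15). Rpl10 made up 1.85%, 1.72%, 2.12%, 2.24%, 1.81% and 1.99% against 1.09%, 1.06%, 1.27%, 1.33%, 1.17% and 1.13% (0.73 ± 0.09). In B-like cells Rpl10 took 0.705% to 1.16%. Rps27l (0.54 ± 0.13), Rpl10a (0.53 ± 0.11), Rps9 (0.48 ± 0.10) and Rplp0 (0.46 ± 0.10) also gained. Rps27rt (-0.57 ± 0.14), Rps6 (-0.45 ± 0.12), which is the ribosomal protein phosphorylated by S6 kinases, Rps29 (-0.42 ± 0.08), Rps24 (-0.36 ± 0.08) and Rps27 (-0.33 ± 0.09) lost.

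**Figure D4:**
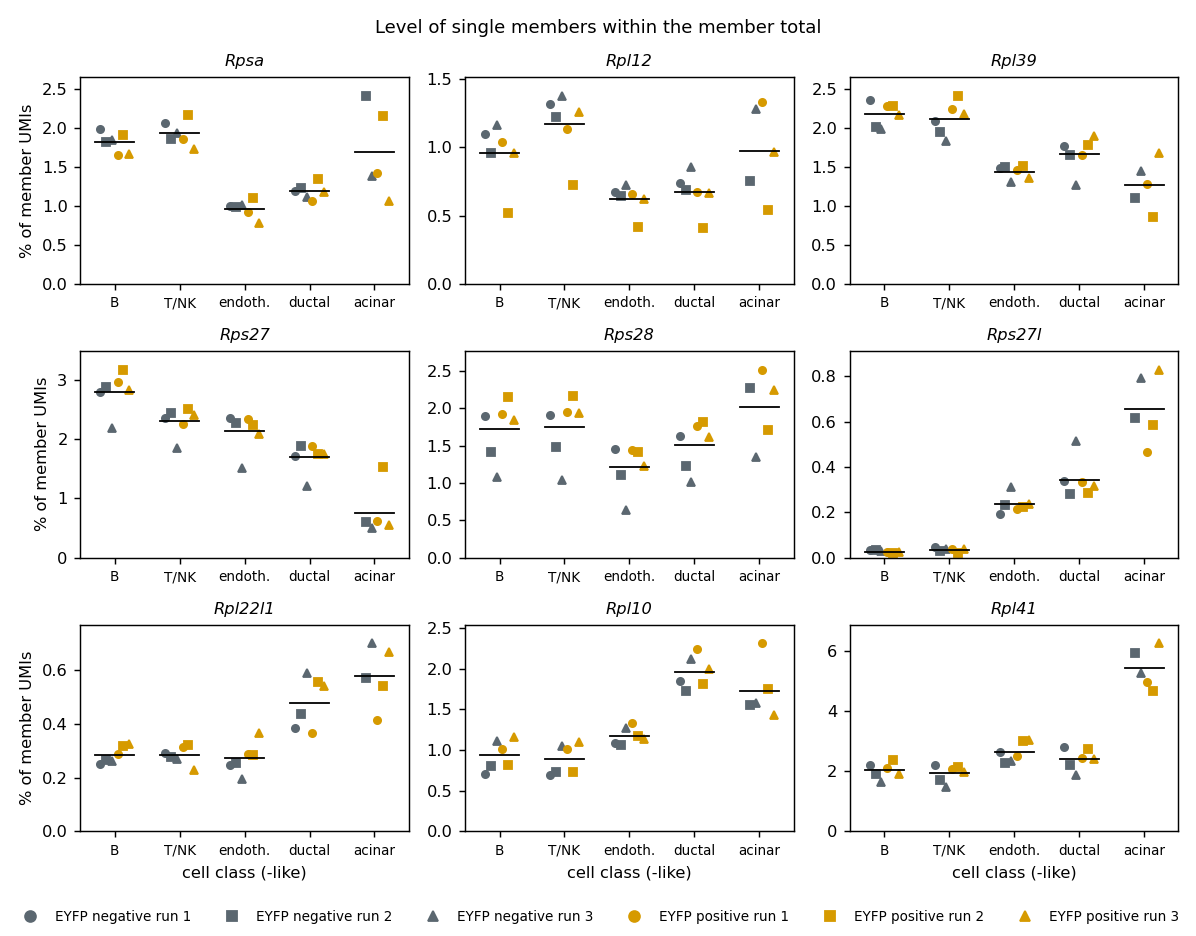
Percent of all member UMIs (vertical axis) taken by members with large differences in makeup, in each cell class; every point is 1 library and lines are means. Rpsa is higher in lymphocytes than in endothelial-like and ductal-like cells, Rps27l is lowest there, Rps28 is lowest in EYFP negative run 3 in each class, Rpl10 and Rpl22l1 are higher in ductal-like than in endothelial-like cells, and Rpl41 is highest in acinar-like cells.

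Against ductal-like cells, acinar-like cells had no member called on this scale, with 5 libraries and wide errors, yet some members differed in every library. Rpl41, the smallest ribosomal protein, whose start window above holds no run of 5 pyrimidines, took 5.92%, 5.27%, 4.96%, 4.68% and 6.25% of member UMIs in acinar-like cells and 2.20%, 1.86%, 2.43%, 2.74% and 2.40% in the ductal-like cells of the same libraries. The ranges did not overlap, but the fit missed the threshold (log2 difference 1.22 ± 0.37, edgeR adjusted p = 0.055). Rps27 took 0.600%, 0.494%, 0.621%, 1.53% and 0.556% in acinar-like cells, all below the ductal-like range of 1.21% to 1.88% other than the 1.53% of EYFP positive run 2 (-1.29 ± 0.43, edgeR adjusted p = 0.074). Rps27l took 0.616%, 0.792%, 0.466%, 0.585% and 0.830% in acinar-like cells, above the ductal-like value of the same library in 5 of 5 (0.94 ± 0.44, edgeR adjusted p = 0.16).

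As counted, members of high mean level over classes were Rps24 (4588 CPM), Rps29 (4064), Rpl41 (3823), Rpl13 (3314), Rps27 (3308), Rplp1 (3106), Rpl23 (3080), Rpl39 (3006) and Rps21 (2972). Those of lowest level were Rpl39l (0.402 CPM) and Rpl3l (1.34), paralogs known from testis and from muscle, then Rps19bp1 (25.7), Rpl7l1 (51.0), Rps27rt (157), Rps27l (238), Rpl13a (440.0), Rpl31 (450.3), Rpl22l1 (525) and Rpl36al (553). UMIs count molecules and were not divided by transcript length. Members with many processed pseudogenes can lose reads that map to several places, so the order among members describes counts and not the amount of RNA.

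Other genes of translation were higher in the same classes, and the medians of neighbouring lists were smaller. Of 25 genes of translation outside the rule, many of them known TOP genes, 22 of 23 tested were higher in B-like than in endothelial-like cells (median log2 difference 1.5002), among them Fau (2.53 ± 0.17), which encodes a small subunit protein fused to a ubiquitin-like sequence, and Nap1l1 (2.00). In T or NK-like against endothelial-like cells it was also 22 of 23, where 28.9% of all genes tested were higher (median 1.5998, Eef1b2 2.27 ± 0.14). In ductal-like against endothelial-like cells 21 were higher and 1 lower of 23, where 33.8% and 33.6% of all genes tested were (median 0.55, Eef1d 1.30, Npm1 1.33). Of 48 ribosome biogenesis genes, 28 of 39 tested were higher and 0 lower in B-like than in endothelial-like cells (median 0.84; the shares of all genes tested given above, 27.8% higher and 36.0% lower, apply to each list in this comparison), with Fbl, the rRNA methyltransferase, at 1.87 ± 0.17 and Nop58 at 1.89. In T or NK-like cells 34 were higher and 0 lower of 42, where 28.9% and 33.4% of all genes tested were (median 1.10). In ductal-like cells 13 were higher and 3 lower of 35, where 33.8% and 33.6% of all genes tested were (median 0.28, Polr1a 1.67). The ductal-like share called higher was thus near that of all genes.

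Mitochondrial ribosomal proteins, which serve the other translation system of the cell, showed 27 higher and 3 lower of 73 in B-like against endothelial-like cells, where 27.8% and 36.0% of all genes tested were (median log2 difference 0.33). In T or NK-like cells 30 were higher and 2 lower of 74 (28.9% and 33.4% of all genes; median 0.42), and in ductal-like cells 43 were higher and 2 lower of 73 (33.8% and 33.6% of all genes; median 0.51, Mrpl54 1.53, Mrpl52 1.27). Against endothelial-like cells, the mitochondrial list thus had its largest median in ductal-like cells and the cytosolic set its largest medians in lymphocytes; the difference between these medians was not tested. Regulators of mTOR and TOP translation were called no more often than genes at large in B-like cells: 5 were higher and 5 lower of 19, against 27.8% and 36.0% of all genes tested, with Myc at 6.10 ± 0.36 and Rheb, the activator of mTORC1, at -1.08. In T or NK-like cells 8 were higher and 5 lower of 16, against 28.9% and 33.4% of all genes tested. There the share called higher was above that of all genes, though it rests on 16 genes. In ductal-like cells 3 were higher and 8 lower of 19, against 33.8% and 33.6% of all genes tested, which shows nothing about the list as a whole. Called genes of the list included the mTOR inhibitors Deptor at 3.24 ± 0.23 and Ddit4 at -2.23.

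Among 2925 genes with a mean level of at least 50 CPM, the pattern most like the mean of the members over the 42 sums of class and library was that of Rack1 (Pearson r = 0.964), a protein of the small subunit whose symbol the rule does not cover. Eef1b2 (0.961), Fau (0.951), Eef1a1 (0.936) and Naca (0.922) followed. The sums share libraries and their depths, so these values are descriptions.

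EYFP positive and negative cells did not differ detectably in member share. In B-like cells the share was 27.7% ± 1.86 (SD, n = 3) in EYFP positive and 27.7% ± 1.40 (n = 3) in EYFP negative libraries, and in T or NK-like cells 28.1% ± 9.29 and 27.9% ± 3.86 (exact permutation p = 0.9 and 1.0). In ductal-like cells it was 13.9% ± 1.39 and 13.4% ± 0.261 (exact p = 0.6), and in acinar-like cells 4.15% ± 2.45 (n = 3) and 5.90% ± 0.983 (n = 2; exact p = 0.5). Macrophage or monocyte-like cells had the largest difference, 18.4% ± 1.39 (n = 2) against 14.2% ± 4.25 (n = 3), or 4.24 points (exact p = 0.3), with 3.67 and 9.24 points within runs 1 and 2. Plasma-like cells had 10.7% ± 5.79 (n = 3) against 7.67% ± 3.96 (n = 2), or 3.07 points (exact p = 0.7), with 3.33 and 6.90 points within those runs. All 11 plasma-like cells of EYFP positive run 2 had a barcode also present in the other library of the run, 9 as the shallower copy. In EYFP positive run 1 it was 7 of 12 cells, 6 as the shallower copy. The 10 plasma-like cells of EYFP positive run 3 had a median of 820.5 UMIs and 26.3% enzyme UMIs. Endothelial-like cells had 9.19% ± 0.964 against 7.37% ± 1.02 (exact p = 0.2). The endothelial-like difference was positive within each of the 3 runs, at 1.62, 1.67 and 2.17 points. The smallest p that 3 against 3 libraries allow is 0.1, and all adjusted values over the 7 classes were at least 0.98. Without barcode copies the differences were 1.82 points in endothelial-like, 1.94 in T or NK-like, 0.544 in ductal-like, -0.366 in B-like, -1.85 in acinar-like and 5.48 in macrophage or monocyte-like cells. The libraries were then not all the same. The macrophage or monocyte-like value rested on EYFP positive run 2 alone (12 cells), since 9 cells were left in run 1, and the ductal-like one lacked EYFP negative run 3 (4 cells left). In plasma-like cells 6 and 2 cells were left in EYFP positive runs 1 and 2, and no value is given.

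No member was called between EYFP positive and negative cells in any of the 5 classes fitted by edgeR with the condition as a term. All genes tested were called in 0.0% of cases in acinar-like, 0.0881% in ductal-like, 0.0733% in endothelial-like, 0.0851% in B-like and 0.0381% in T or NK-like cells. At an unadjusted p under 0.05 the counts of members were 0, 2, 2, 1 and 0, and DESeq2 called none either. Median member log2 differences were -0.09, -0.01, 0.15, -0.06 and -0.10 in those classes, and 68 of 83 members were positive in endothelial-like cells. The endothelial-like value rested on single libraries: without EYFP negative run 1 the median was -0.01 with 38 of 83 positive, and without EYFP negative run 2 it was 0.34 with 79 of 82 positive. In acinar-like cells the median was -1.09 without EYFP positive run 1 (1 of 81 positive), 0.12 without EYFP positive run 2 (60 of 80 positive) and -1.39 with the run as a block (1 of 82 positive). When a library was left out it ran from -0.12 to 0.08 in ductal-like, -0.13 to 0.04 in B-like and -0.35 to 0.09 in T or NK-like cells, so no direction is given for the set in these classes. Rps28, a small subunit protein at the mRNA exit, was among the members of lowest p in 3 classes. Its level in B-like cells was 5321, 4295 and 3076 CPM in EYFP negative and 5901, 6182 and 5636 CPM in EYFP positive runs 1 to 3 (log2 difference 0.43 ± 0.18, edgeR unadjusted p = 0.0288). In endothelial-like cells it was 1012, 1037 and 455 CPM against 1272, 1490 and 985 CPM (0.63 ± 0.24, unadjusted p = 0.0174 in edgeR). EYFP negative run 3 was the low library in both, and without it the log2 differences were 0.24 and 0.37. The others of lowest p included Rps27rt (-0.77 ± 0.36) in ductal-like cells, Rpl22l1 (0.54 ± 0.26) and Rpl38 (0.48 ± 0.25) in endothelial-like cells and Rps27l (-0.48 ± 0.26) in B-like cells.

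Between pancreatitis and homeostasis, the member share of B-like cells was 29.6% ± 0.481 (SD, n = 2) against 26.8% ± 0.353 (n = 4), a difference of 2.77 points (two-sided exact permutation p = 0.0667, the smallest that 2 against 4 allow; adjusted 0.467). The 2 pancreatitis libraries were the 2 highest. The low-UMI B-like cluster lay mostly in a homeostasis library, and with stricter cell filters the difference was -0.370 points, so the direction depended on that filter. In acinar-like cells the share was 6.30% against 3.89% (exact p = 0.3), and the homeostasis mean includes the 1.38% of EYFP positive run 2. The T or NK-like class differed in makeup between the conditions. Of the 100 cells of its cluster with Gzma and Ncr1, which had a median share of 21.3%, 78 lay in EYFP negative run 3 and 6 in EYFP positive run 3. The part of this makeup in the T or NK-like difference was not tested. Differences were -1.03 points in ductal-like (exact p = 0.267), -0.492 in endothelial-like (exact p = 0.8) and -3.39 in T or NK-like cells (exact p = 0.6). With 1 pancreatitis library against 4, they were 3.43 in macrophage or monocyte-like and -3.57 in plasma-like cells (exact p = 0.6 for both).

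Gene by gene, edgeR called 0 members between pancreatitis and homeostasis in each of the 5 classes. All genes tested were called in 12.9% of cases in acinar-like, 0.162% in ductal-like, 0.0733% in endothelial-like, 0.477% in B-like and 0.609% in T or NK-like cells. Members with an unadjusted p under 0.05 numbered 0, 1, 3, 1 and 1, and DESeq2 also called 0. In acinar-like cells 147 of 1140 genes were called, most of them lower: 9, or 0.789%, were called higher, and none of the 80 members tested was called. All 80 had a positive log2 difference there, with a median of 0.70, but the errors were about as large (Rps27l 1.28 ± 1.13), and the median was 0.08 without EYFP positive run 2 and -0.11 without the low-UMI cluster. Without EYFP positive run 1, 1 member was called, with a member median of 1.98 and 600 of 1680 genes tested called (35.7%). Medians in the other classes were -0.09 (ductal-like), -0.24 (endothelial-like), 0.01 (B-like) and -0.28 (T or NK-like). When a library was left out they ran from -0.17 to 0.00, -0.36 to -0.09, -0.06 to 0.07 and -0.43 to -0.10, in the same order, and with stricter cell filters the endothelial-like median was -0.07 and the B-like one -0.12. The part of cluster makeup in the T or NK-like median was not tested. The lowest p of a member was that of Rps28 in endothelial-like cells (-0.82 ± 0.27, edgeR unadjusted p = 0.00573, adjusted p = 0.58), at 455 and 985 CPM in pancreatitis and 1012 to 1490 CPM in homeostasis. Without EYFP negative run 3 that value was -0.48. Rpl38 in ductal-like (-0.53 ± 0.23), Rpl10 in B-like (0.44 ± 0.20) and Rpl35 in T or NK-like cells (-0.85 ± 0.37) had the lowest p in their classes.

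**Figure D5:**
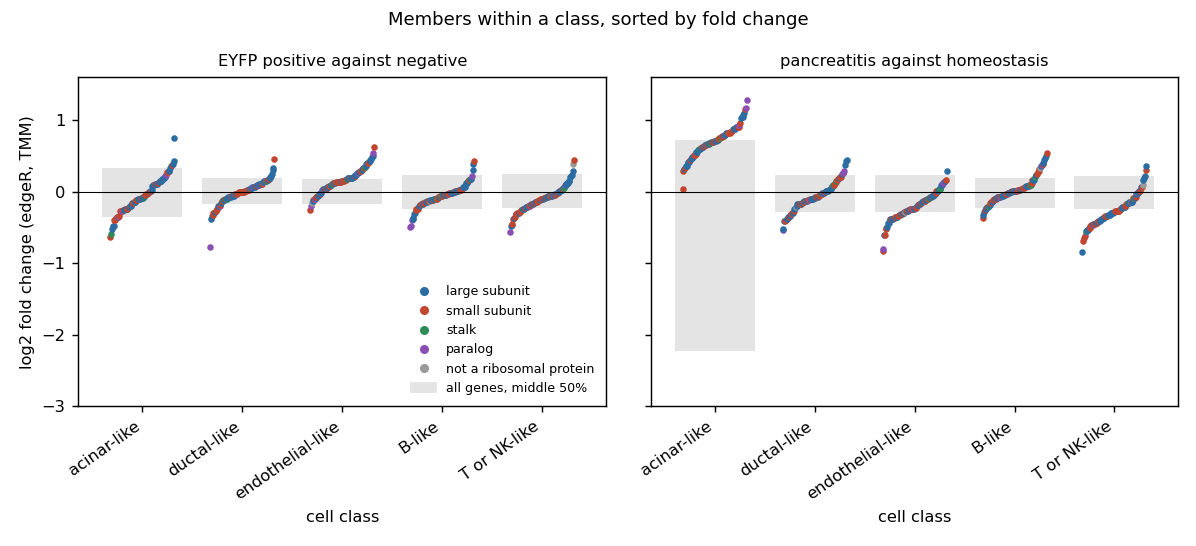
Fitted log2 differences of the tested members (vertical axis) for EYFP positive against negative (left) and for pancreatitis against homeostasis (right), with 1 sorted column of points per cell class and grey boxes for the interquartile range of all genes tested. No point passes the adjusted threshold; the acinar-like column of the pancreatitis comparison lies above 0, with a median of 0.70 that falls to 0.08 without EYFP positive run 2.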

How the data were processed

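Raw UMI counts per gene and barcode were used as deposited, as 6 matrices. The submitters' processing notes name Cell Ranger 2.1.0 and GRCh38, per the file headers the matrices were written by software version 3.1.0, and their gene IDs are mouse; which mouse build was used is not stated in any source at hand. No library protocol was given.

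Kept barcodes had 200 or more genes and no more than 20% of UMIs from mitochondrial genes, and 41 doublets marked by scrublet in scanpy 1.11.5 were left out. Clustering (2000 variable genes, 30 components, 15 neighbours, Leiden resolution 1) left out the members. Clusters were named from marker lists, with at least 3 detected markers. A cluster with under 1/3 of the median UMIs of its libraries and no listed marker among its 10 leading genes was left unnamed. A class entered with at least 10 cells in a library. The share is the median over cells of member UMIs per 100 UMIs. Differences in share were tested by exact permutation over libraries. Counts summed per class and library were tested with edgeR 4.0.16 (TMM, filterByExpr, quasi-likelihood) in R 4.3.3, with DESeq2 1.42.0 as alternative, and the scripts were tested on simulated data. Intervals were not used; errors are SDs over libraries or SEs of the fit, and p-values cover only these libraries. Samples were grouped by the EYFP status and run in their labels.

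The members, gene lists and rules were chosen with earlier results of these data known. Named genes were, per fit, up to 8 called members per direction with the same sign in every library, or the 3 of lowest p where fewer than 3 passed, the 10 highest and 10 lowest by level, and fixed paralogs, also on the scale of the member total. Libraries of the same run deviated together from their EYFP group means over all genes (r of 0.19 to 0.37 in 4 classes, 0.67 and 0.83 in acinar-like cells). Over the members alone r ran from -0.23 (acinar-like, run 2) to 0.51 (T or NK-like, run 2). Each group mean rests on 2 or 3 libraries and includes run 3, so r also holds the condition and cannot show pairing by run alone. In the EYFP fits the block by run left 0 members called. It raised the genes called at large from 5 to 27 in B-like and from 5 to 11 in endothelial-like cells.

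Promoter windows came from RefSeq (GRCm38.p6). Protein sequences were not used here. Some genes that the naming rule selects are not reported here.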

Additional observations from a re-analysis of the deposited data

Results flagged for a closer look

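In ductal-like cells the EYFP difference in member share changed sign between runs. This was not particular to them. The difference also changed sign in T or NK-like cells (-3.65, 6.43 and -2.23 points in runs 1 to 3) and in B-like cells (-0.418, 0.00993 and 0.680). In ductal-like cells EYFP positive minus EYFP negative was 1.74 percentage points in run 1 and 0.969 in run 2, both in homeostasis, and -1.35 in run 3, after cerulein. The change of sign was not tested, since each run has 1 library per EYFP status. The EYFP negative library of run 3 rests on 11 ductal-like cells with 7.78% haemoglobin UMIs, and 7 of the 11 are the shallower copy of a barcode also present in EYFP positive run 3. Without barcode copies 4 cells are left, too few for a value in run 3, and the ductal-like EYFP difference over the other libraries was 0.544 points.

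The pseudogene symbols left out of the set had UMIs of their own, 4009 in the kept cells. Rpl10-ps3 had 1852 of them, against 52513 for Rpl10, Rpl27-ps3 had 618, Rps12-ps3 528 and Rpl9-ps6 511. Which of these reads came from the parent genes was not tested.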

How the results depend on the processing

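The share differences moved as follows. Without mitochondrial, haemoglobin and enzyme genes in the total, acinar-like minus the other classes was 2.89 points and macrophage or monocyte-like -1.30, and the EYFP differences were -0.441 in B-like and -0.314 in T or NK-like cells. With stricter cells (500 genes, 10% mitochondrial) the macrophage or monocyte-like value was -1.0004, the EYFP differences -1.07 (B-like) and -3.88 (T or NK-like), and the pancreatitis differences -0.370 (B-like) and 0.479 (endothelial-like). With pooled shares the EYFP differences were -0.212 (T or NK-like) and -1.41 (plasma-like). Clustered with the members, the EYFP difference was -0.670 in B-like and the pancreatitis difference 0.602 in endothelial-like cells. The settings without barcode copies and without low-UMI clusters were chosen after seeing the data: the B-like EYFP difference was -0.366 and -0.674, and macrophage or monocyte-like cells without low-UMI clusters were at -0.250. Leaving out 1 library at a time, the EYFP difference ran from -0.981 to 0.867 in B-like, -5.08 to 3.71 in T or NK-like, -0.0455 to 1.25 in ductal-like and -0.245 to 5.87 in plasma-like cells, and the pancreatitis difference from -1.58 to 0.595 in endothelial-like cells. The cause was not tested.

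Scaled to the member total, the members higher and lower were 15 and 28 (B-like against endothelial-like, median log2 -0.0319), 16 and 23 (T or NK-like against endothelial-like, median -0.0468), 10 and 9 (B-like against T or NK-like) and 16 and 20 (ductal-like against endothelial-like), and the acinar-like against ductal-like median was -0.14. On this scale the member medians lie near 0 by construction, so they are no check on direction. Except for B-like against T or NK-like cells (-0.02 to -0.06), this scale moves the median of all genes by over 0.1 (to -2.31 for B-like against endothelial-like). For B-like against T or NK-like cells, DESeq2 and clustering with the members each gave 1 member higher, leaving out low-UMI clusters gave 7, and leaving out a library gave 1 to 6 higher and 0 to 1 lower. For acinar-like against ductal-like cells, DESeq2 size factors gave 2, DESeq2 14, no low-UMI clusters 56, and leaving out a library 0 to 37 (the share of all genes called also rose, from 15.6% to 28.5% without low-UMI clusters). Without EYFP positive run 1, 1 member was called between pancreatitis and homeostasis in acinar-like cells (with 35.7% of all genes), and the EYFP log2 difference of Rpl13a in those cells ran from -0.411 (without that library) to 1.10 when a library was left out. With the run as a replicate block the Rpl13a value was -0.713, and the block left 0 members called in each class. For the endothelial-like share it gave the same 1.82 points (exact p = 0.25, the smallest it allows). Counts of 80 and 1 members in both lymphocyte comparisons with endothelial-like cells stayed the same in each left-out library. Depth limits low members: Rpl3l and Rpl39l did not pass the filter on low counts in the class comparisons. Without that filter 84 members were tested in B-like against endothelial-like cells.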

Other observations

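The makeup of the member set differed between libraries in ways that recurred across cell classes. Over 5 classes and 83 members, EYFP positive run 2 had the lowest percent of member UMIs of all libraries in every class for 11 members and the highest in every class for 8. The corresponding counts were 3 and 2 in EYFP negative run 3, 1 and 0 in EYFP negative run 1 (4 classes) and 0 in the other 3 libraries. No such count over all genes is given, so these counts are descriptions and no result about the members as a set. In EYFP positive run 2 the mean log2 deviation from the other libraries was -1.41 for Rpl23a, -1.06 for Rpl17, -0.95 for Rps25, -0.94 for Rpl5, -0.85 for Rpl12 and -0.66 for Rps12, and it was 0.39 for Rpl19 and 0.38 for Rps3a1. In EYFP negative run 3 it was -0.80 for Rps28, -0.51 for Rps27, 0.51 for Rps15 and 0.48 for Rpl17. The members named here stood out in their library, so their sizes are not set against the member differences between EYFP positive and negative cells. The cause was not tested.

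Barcodes removed by the filters on genes and mitochondrial UMIs had lower median member shares than the kept barcodes of their library, which had 8.75% to 19.3%. Those with fewer than 200 genes had median shares of 0.201% to 3.21% over the libraries. In EYFP negative run 3, 2104 barcodes with fewer than 200 genes had a median of 5383 UMIs and a median member share of 0.201%. Barcodes above 20% mitochondrial UMIs had median shares of 1.74% to 5.38% over the 6 libraries.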
